A study of Mus musculus with 6 samples.

Results

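The 46 genes described here encode the machinery that copies DNA in S phase and the enzymes that supply its nucleotides. They were chosen by name from a list of S phase genes. All 46 were found by symbol among the 19973 Ensembl genes of the deposited table. They fall into 7 classes: 17 genes of the replicative helicase and its licensing, 9 of the polymerases, 5 of the sliding clamp and its loader, 5 of single-strand binding and lagging-strand processing, 5 of deoxynucleotide synthesis, 2 of chromatin assembly and 3 of fork protection. The cells were peritoneal macrophages of male C57BL/6 mice, 18 months old in the group called old and 2 months old in the group called young. Every mouse had received 200 µg of zymosan A, a yeast cell wall preparation that sets off sterile peritonitis, into the peritoneum. Cells were lavaged at 72 h, kept overnight in medium with L-cell supernatant (a source of macrophage colony-stimulating factor), washed of unattached cells, and given PBS as vehicle for 6 h. Each age has 3 libraries, and cells treated with resolvin D2 were not analysed here. The study's design text speaks of 3 mice a group with RNA sequenced in triplicate, and the labels do not say whether a library is a mouse or a repeat run. The p-values therefore compare ages against the variation among these 6 libraries, and part of that variation may be technical.

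Replication is prepared in G1, when the origin recognition complex, Cdc6 and Cdt1 load the Mcm2-7 helicase onto DNA. In S phase Cdc45 and the GINS complex join the helicase to form the active motor, polymerases alpha, delta and epsilon synthesise the new strands, and PCNA, loaded by replication factor C, tethers the polymerases. Ribonucleotide reductase, thymidylate synthase and thymidine kinase 1 make the deoxynucleotides, and E2F transcription factors control many of these genes. Tissue macrophages can divide in place, and colony-stimulating factor 1 drives that division.

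The libraries held between 8163016 and 13007604 reads over genes, and each member had between 55 and 3447 reads in every library, so that counting error was small for most of them. Old replicate 3 stood apart in its share of non-mitochondrial ribosomal RNA, which was 1.34% of reads against 0.0177% to 0.154% in the other 5 libraries. It was the lowest of the old libraries for 32 of the 46 members, and young replicate 3 was the highest of the young libraries for 33. The same counts over all tested genes are not given here, and a link to the ribosomal RNA share was not tested. Of 10 macrophage markers, 9 were tested and 6 were higher in old by limma, among them Csf1r and Cd68. Markers of resident peritoneal macrophages were low in every library, Gata6 at 9.56 to 16.7 normalized counts and Timd4 at 6.14 to 16.7, under the filter by its mean. Markers of other cells moved too. B cell markers were higher in old for 8 of 8 genes, with summed normalized counts of 1632 to 3251 in old and 122 to 127 in young libraries. Mast cell markers were higher for 5 of 5 tested, with sums of 534 to 605 against 38.2 to 62.5. The T and NK cell markers lay under the filter, with sums of 45.7 to 77.8 against 4.23 to 9.65, and Trac and Ncr1 were at 0 in every young library. S100a8 was the 1 neutrophil marker tested and was higher in old by 1.46, with Cxcr2 at 0 in every young library. Of the 4 mesothelial and fibroblast markers tested, 2 were higher and 1 lower, with sums of 599 to 669 against 600.2 to 733, and no eosinophil or dendritic cell marker passed the filter. The part these cells have in the values below was not tested. In bulk RNA, fewer dividing cells and less RNA of a gene per cell cannot be told apart.

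In the old libraries 33 of the 46 members were lower, none was higher and 13 did not pass, by limma on log2(normalized count + 1) at an adjusted p below 0.05 over 11795 tested genes. Of all tested genes, 17.6% were called lower and 17.9% higher. At an unadjusted p below 0.05 the members gave 40 lower and 0 higher. edgeR on recovered reads called 40 lower and 0 higher, and DESeq2 31 and 0. Every old library lay below every young one for 41 members, against 23.6% of all tested genes. The median log2 difference of the members, old minus young, was -0.45, beside 0.00014 for all tested genes. Falls of at least 1 on the log2 scale were called for 6 members, Tk1, Rrm2, Tyms, Mcm10, Rrm1 and Pole, while 4.89% of all tested genes passed at that size. With both libraries numbered 3 left out, 34 members were lower and 2, Pcna and Rfc2, were higher. The shares of all tested genes called in that fit are not given here, and higher calls also grew in the wider list below. The 2 higher calls therefore cannot be read as particular to these members.

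**Figure D1:**
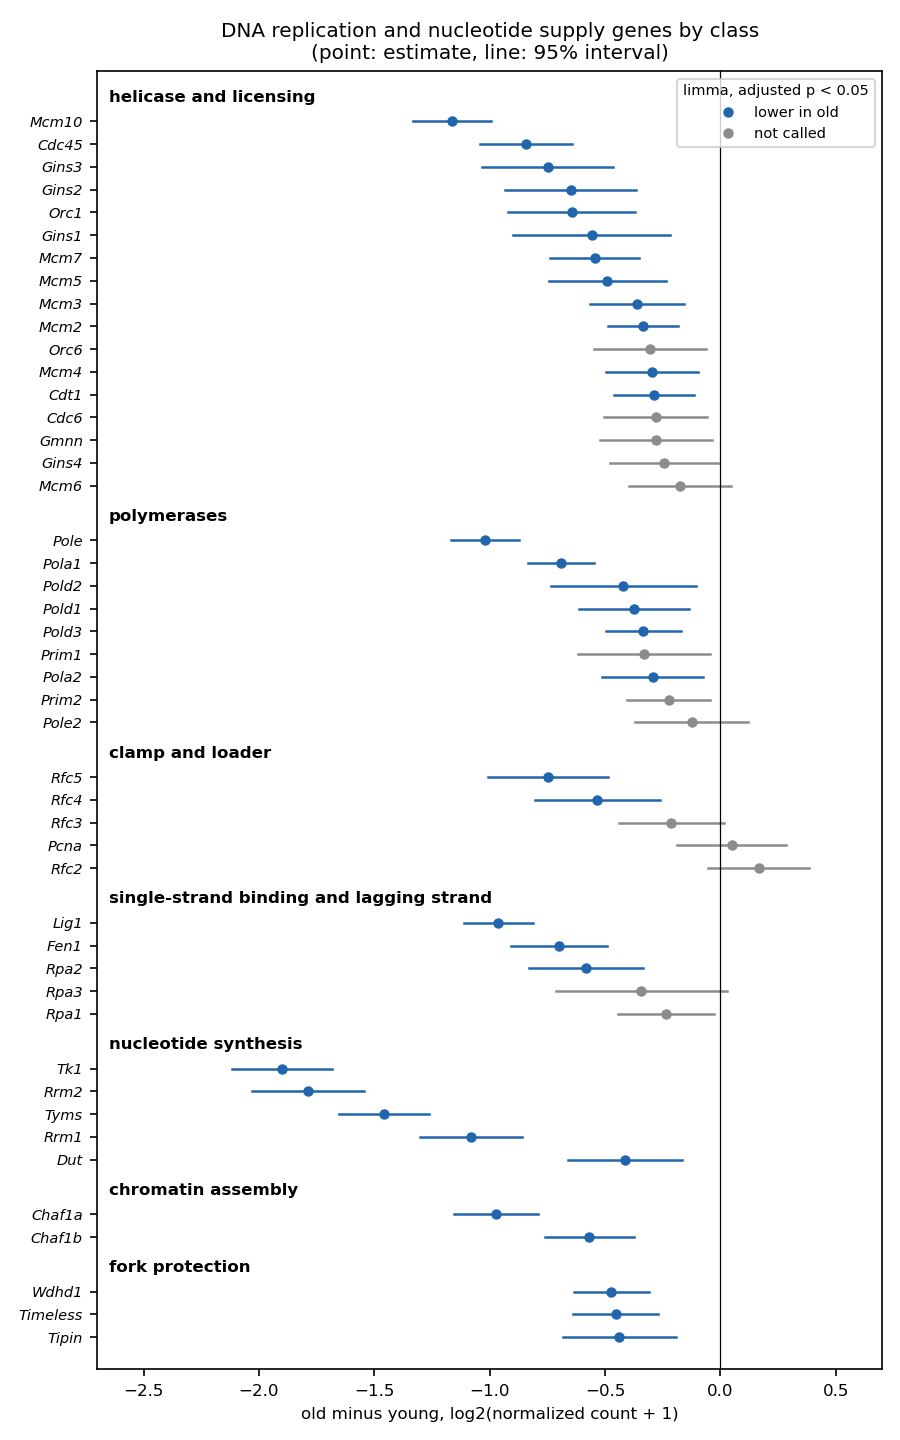
Log2 difference of each member between old and young libraries (horizontal axis, log2(normalized count + 1), old minus young), with its 95% interval as a line, grouped by class and coloured by limma call. The nucleotide synthesis genes Tk1, Rrm2 and Tyms lie farthest to the left at -1.90, -1.79 and -1.46, and Pcna and Rfc2 are the 2 members right of zero.

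The nucleotide synthesis class fell in full, 5 of 5 genes, with a median difference of -1.46. Tk1 encodes thymidine kinase 1, the cytosolic enzyme that salvages thymidine (ENSMUSG00000025574, chr11:117815526-117826092, minus strand). Its normalized counts were 166, 189 and 151 in old replicates 1 to 3 and 642, 613 and 635 in young replicates 1 to 3. The age groups were far apart, and young libraries were 3.74-fold above old on average, the widest gap among the members (log2 difference -1.90 ± 0.10 SE, limma adjusted p = 7.37e-07). Rrm2 encodes the small subunit of ribonucleotide reductase, the enzyme that turns ribonucleotides into deoxyribonucleotides (ENSMUSG00000020649, chr12:24708241-24714146, plus strand). Old libraries gave 508, 486 and 386 and young ones 1499.8, 1543 and 1705. The lowest value was in old replicate 3 and the highest in young replicate 3, with no overlap (-1.79 ± 0.11, limma adjusted p = 2.09e-06, 3.44-fold). The large subunit gene Rrm1 (ENSMUSG00000030978, chr7:102441695-102469771, plus strand) was measured at 1315, 1267 and 1078 in old and 2375, 2494 and 2869.7 in young libraries. The old and young values were again separate, and the difference of -1.08 ± 0.10 was smaller in size than that of Rrm2 (limma adjusted p = 3.04e-05).

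Tyms encodes thymidylate synthase, which makes dTMP from dUMP (ENSMUSG00000025747, chr5:30058202-30073617, minus strand). It gave 166, 162 and 157 in old and 418, 440.5 and 480.0 in young libraries. The 3 old libraries lay within a few counts of each other, and all were far below the young ones (-1.46 ± 0.09, limma adjusted p = 1.95e-06, 2.76-fold). Dut, whose product hydrolyses dUTP so that uracil is kept out of DNA, fell least in this class, from 230.0 ± 26.1 in young to 172 ± 7.53 in old (SD, n = 3 each; -0.41, limma adjusted p = 0.0158). Its call was lost without old replicate 1 (limma adjusted p = 0.0572), young replicate 1 (0.0627) or young replicate 3 (0.0543).

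**Figure D2:**
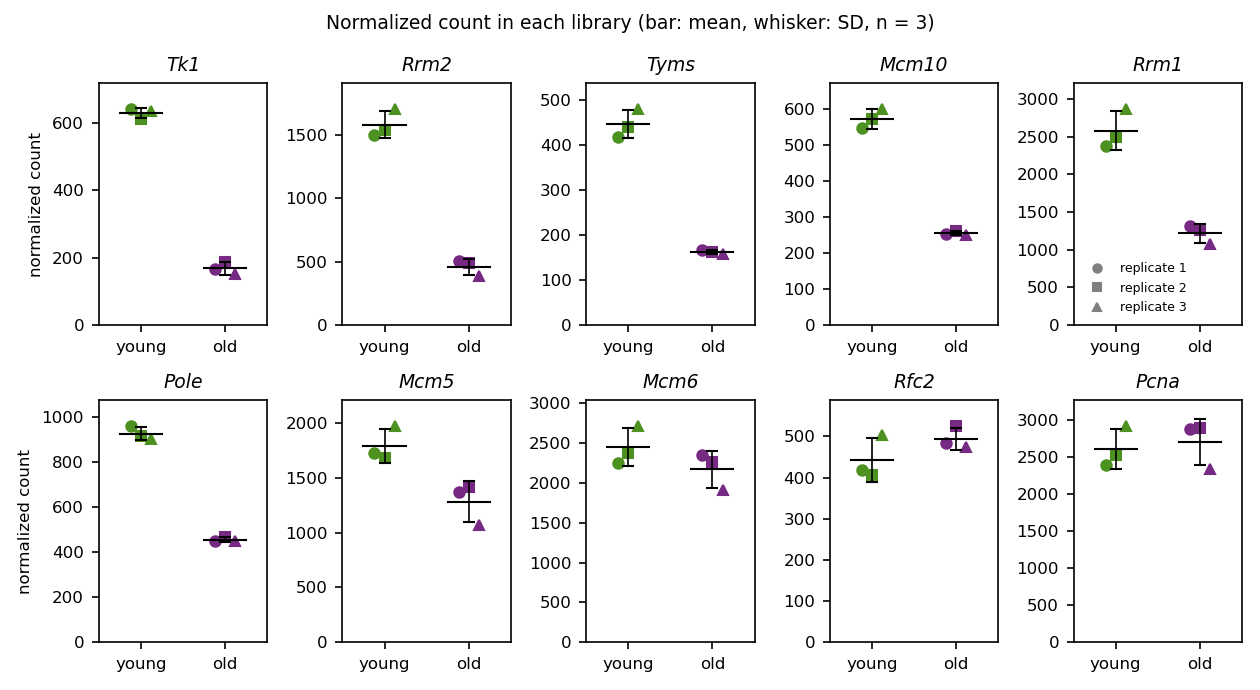
Normalized count (vertical axis, from 0) in each library for 10 members, with the 3 young libraries in green and the 3 old in purple, a bar at the mean and a whisker for the SD. In Tk1, Rrm2, Tyms, Mcm10, Rrm1, Pole and Mcm5 the old points all lie below the young ones, whereas those of Mcm6, Rfc2 and Pcna overlap; these 10 genes were picked after their values were seen.

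In the helicase and licensing class 12 of 17 genes fell, none rose and 5 did not pass, with a median of -0.36. Mcm10, a factor that binds the helicase as origins fire (ENSMUSG00000026669, chr2:4989714-5012791, minus strand), changed most. Its counts were 253, 261 and 251 in old and 546, 571 and 600.0 in young libraries, tight within each age and separate between them (-1.16 ± 0.07, limma adjusted p = 3.33e-06, 2.24-fold). Of the 6 subunits of the Mcm2-7 ring, 5 fell, with differences from -0.30 for Mcm4 to -0.54 for Mcm7. The subunit that did not pass was Mcm6, the member of this class with the highest mean (ENSMUSG00000026355, chr1:128331590-128359664, minus strand). It was measured at 2341, 2256 and 1906 in old and 2248, 2377 and 2707 in young libraries. Old replicates 1 and 2 lay within the young range and old replicate 3 below it, and the difference of -0.17 had a 95% interval of -0.40 to 0.05 (limma adjusted p = 0.199). That interval holds the differences of Mcm2, Mcm3 and Mcm4 (-0.34, -0.36 and -0.30), so Mcm6 is not shown to differ from them. The differences of Mcm5 and Mcm7 (-0.49 and -0.54) lie outside it, and a difference between subunits was not tested. Under quantile normalization Mcm6 passed as lower (-0.22, limma adjusted p = 0.0386). The call of Mcm4 was lost without old replicate 2 (limma adjusted p = 0.0683), young replicate 2 (0.0768) or young replicate 3 (0.0764).

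Of the 5 genes for Cdc45 and GINS, the partners that turn the ring into an active helicase, 4 fell. Cdc45 fell by 0.84 ± 0.09 (limma adjusted p = 8.08e-05). Of the GINS genes, Gins1, Gins2 and Gins3 fell, with differences of -0.56, -0.65 and -0.75, and Gins4 was at 350.2 ± 26.3 in young and 296 ± 31.7 in old without passing (limma adjusted p = 0.0952). The call of Gins1 was lost without young replicate 2 (limma adjusted p = 0.0548) or young replicate 3 (0.0545).

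Among the loading factors, Orc1, the origin recognition subunit whose level rises before S phase, fell by 0.65 (limma adjusted p = 0.00282). Cdt1, which brings the ring to origins, fell by 0.29 (limma adjusted p = 0.0174), a call lost without old replicate 1 (0.0683) or young replicate 1 (0.0699). Cdc6, Orc6 and the Cdt1 inhibitor Gmnn did not pass, at -0.28, -0.30 and -0.28, although all old libraries lay below all young ones for each. Leaving out a single library brought 2 of these past the threshold, Cdc6 without old replicate 3 (limma adjusted p = 0.047) and Orc6 without old replicate 1 (0.0127).

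Of the 9 polymerase genes 6 fell and 3 did not pass, with a median of -0.34. Pole, the catalytic subunit of leading-strand polymerase epsilon (ENSMUSG00000007080, chr5:110286306-110337474, plus strand), gave 449, 468 and 451 in old and 959.6, 915 and 903 in young libraries. The 2 ages were separated by a wide gap with little spread inside each (-1.02 ± 0.07, limma adjusted p = 3.40e-06, 2.03-fold). Its accessory subunit Pole2 was at 171 ± 1.90 in old and 187 ± 22.2 in young (SD, n = 3), with overlapping libraries and a difference of -0.13 (95% interval -0.37 to 0.12). Pola1, the catalytic subunit of the primer-extending polymerase alpha and the polymerase gene with the highest mean, gave 644, 631 and 669 in old and 1033, 1061 and 1044 in young libraries. The old values were all below the young ones (-0.69 ± 0.06, limma adjusted p = 3.23e-05).

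The other subunits moved less. Pold3 of the lagging-strand polymerase delta fell by 0.34 (limma adjusted p = 0.00596). Pold1, its catalytic subunit, fell by 0.38, a call lost without old replicate 1 (limma adjusted p = 0.0881) or young replicate 1 (0.0892). Pola2 and Pold2 fell, with differences of -0.29 and -0.42 and limma adjusted p of 0.0403 and 0.0412, close to the threshold. Pola2 lost its call in 4 of the 6 fits without 1 library, with limma adjusted p up to 0.149 without young replicate 1, and kept it without old replicate 3 or young replicate 2. Pold2 lost it in 5, with p up to 0.121 without young replicate 3, and kept it without old replicate 2. The primase genes Prim1 and Prim2 did not pass, at -0.33 and -0.22. Prim1 passed without old replicate 1 (limma adjusted p = 0.0245) and Prim2 without old replicate 3 (0.0441).

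In the clamp and loader class 2 of 5 genes fell and 3 did not pass, with a median of -0.21. Pcna encodes the sliding clamp (ENSMUSG00000027342, chr2:132249162-132253314, minus strand) and had the highest mean of the class. Its normalized counts were 2876, 2888 and 2341 in old and 2389, 2526 and 2913 in young libraries. The ages overlapped, with the lowest value in old replicate 3 and the highest in young replicate 3. The difference was 0.05 with a 95% interval of -0.19 to 0.28 (limma adjusted p = 0.745), so that a fall like that of Tk1 or Rrm2 lies outside it. Its sign turned under quantile normalization (-0.033), without old replicate 2 (-0.00295) and without young replicate 1 (-0.012), and it passed as higher with both libraries numbered 3 left out (0.23, limma adjusted p = 0.000751).

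The 4 loader genes differed in their calls. Rfc5 had the smallest adjusted p of the class, with 342, 317 and 250.2 in old and 482, 515 and 519.7 in young libraries. Every old library was below every young one (-0.75 ± 0.12, limma adjusted p = 0.000879). Rfc4 fell by 0.53 (limma adjusted p = 0.00755). Rfc3 did not pass, at -0.21 with a 95% interval of -0.44 to 0.01. Rfc2 had a positive difference of 0.16 (95% interval -0.05 to 0.38), with 484, 525 and 475 in old and 417, 406 and 504 in young libraries. Only young replicate 3 kept its groups from being separate, and without that library it passed as higher (0.26, limma adjusted p = 0.0462).

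For single-strand binding and lagging-strand processing, 3 of 5 genes fell and 2 did not pass, with a median of -0.58. Lig1 encodes the DNA ligase that joins Okazaki fragments. It gave 421, 427 and 448 in old and 838, 837 and 855 in young libraries, a clear separation with little spread within ages (-0.96 ± 0.07, limma adjusted p = 5.02e-06, 1.95-fold). Fen1, the nuclease that trims the flaps of those fragments, fell by 0.70 ± 0.09 (limma adjusted p = 0.000347). The subunits of the single-strand binding complex RPA differed in their calls. Rpa1, the large subunit and the member of this class with the highest mean, gave 1093, 1129 and 932 in old and 1171, 1188 and 1354 in young libraries. The groups did not overlap, yet the difference of -0.24 did not pass (95% interval -0.44 to -0.03, limma adjusted p = 0.075). Rpa2 fell by 0.58 (limma adjusted p = 0.00273), and Rpa3, the lowest of all members by mean, was at -0.34 with overlapping libraries.

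Both genes of chromatin assembly factor 1, which deposits new histones behind the fork, fell. Chaf1a, its large subunit, gave 317, 335 and 365 in old and 639, 698 and 658 in young libraries. Old values stayed below all young ones (-0.97 ± 0.08, limma adjusted p = 1.71e-05). Chaf1b fell by 0.57 (limma adjusted p = 0.000783). All 3 fork protection genes fell, with a median of -0.45. Wdhd1, which links the helicase to polymerase alpha, gave 467, 425 and 469 in old and 628, 639 and 623 in young libraries, with no overlap (-0.47 ± 0.07, limma adjusted p = 0.000807). The partner proteins Timeless and Tipin, which stabilise stalled forks, fell, with differences of -0.45 and -0.44 (limma adjusted p = 0.00216 and 0.0116).

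Subunits of the same complex had different fold changes, so the ratio of their normalized counts was taken within each library for 6 pairs, chosen after the values were seen. Ratios within a library do not depend on its size factor. The ratio of Rrm2 to Rrm1 was 0.376 ± 0.0157 in old and 0.615 ± 0.0189 in young libraries (mean ± SD, n = 3 each). For Pole to Pole2 it was 2.67 ± 0.0794 in old and 5.002 ± 0.636 in young. The loader pair Rfc5 to Rfc2 gave 0.612 ± 0.0900 and 1.15 ± 0.119, in the same order. In each of these pairs the old ratios lay below the young ones without overlap. The smaller shifts were those of Pola1 to Pola2, from 2.79 in young to 2.11 in old, of Chaf1a to Chaf1b, from 1.48 to 1.13, and of Gins3 to Gins4, from 0.376 to 0.264. All 6 pairs were separate between ages. A 2-sided exact permutation test gave p = 0.1 for each pair, also after adjustment over the 6 pairs, which is the smallest value that 3 against 3 libraries allow. As the pairs were picked for their different fold changes, the separation was largely set by that choice. The adjustment does not cover it, so the test gives no support to any pair.

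Levels of different members were compared per kilobase of transcript, as normalized count divided by the length of the transcript with the longest coding sequence. Pcna was the most abundant member in both ages, at 1719 per kb in young and 1779.9 in old, followed in both by Mcm6 at 839.9 and 745. Rrm2 was next in young, at 722 per kb and rank 3, but had rank 15 in old at 209.8. Tk1 went from rank 9 at 438 per kb to rank 30 at 117. Thus the members with the highest level per kb in old cells, Pcna and Mcm6, were 2 whose difference did not pass.

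The promoters of members were read for 4 exact strings of letters that E2F factors bind, since E2F factors control many of these genes. Other forms of the E2F site were not searched. The RefSeq windows on GRCm38.p6 run from 250 bases before to 50 after a gene's start, and 37 of the 46 members had at least 1, with 42 windows in all. The letters searched on both strands were TTTCCCGC, TTTCGCGC, TTTGCCGC and TTTGGCGC, where matches on opposite strands may overlap, and the search was set up after the values were seen. They occurred in 14 member windows (33.3%), each of a different gene, and in 2.26% of all 32851 windows. By class they were found in 8 of 12 helicase and licensing genes with a window and in 0 of 5 nucleotide synthesis genes. Of the 9 uncalled members that had a window, 4 held a match, and of the 5 members lower by at least 1 that had a window, 0 did. These are too few to say whether matches go with the size of a fall. The Mcm10 window ends in the letters TTTGGCG, so a match across its edge would be missed. Members with smaller falls went both ways. Lig1 (-0.96), Gins3 (-0.75) and Pola1 (-0.69) held a match, whereas Chaf1a (-0.97), Cdc45 (-0.84) and Fen1 (-0.70) did not. These genes are examples and not a full list. The CCAAT letters were in 52.4% of member windows and 37.4% of all windows. The letters TTTGAA or TTCGAA, those of the cell cycle element CHR that mitotic genes carry, were in 16.7% of member windows and 19.2% of all windows. Of the 20 mitotic genes with a window, 16 held CHR letters and 17 held CCAAT. A match describes letters only, and a window without one says nothing about the factor.

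The bases before the start of 4 genes are printed, 5′ to 3′ in the direction of transcription, because they pair matched windows of the helicase ring with unmatched windows of genes that fell most. These 4 were chosen for that contrast and do not stand for the members as a whole. Capitals mark the E2F letters that were searched. Mcm5 (chr8:75109259-75109508 on the plus strand) fell by 0.49, and Mcm6 (chr1:128359706-128359955 on the minus strand) did not pass. In both, matches on opposite strands overlap, from 153 bases before the start in Mcm5 and from 110 in Mcm6, and Mcm6 has another at 47. Rrm2 (chr12:24708004-24708253 on the plus strand) and Tk1 (chr11:117826015-117826264 on the minus strand) have none of these letters in their windows.
Mcm5: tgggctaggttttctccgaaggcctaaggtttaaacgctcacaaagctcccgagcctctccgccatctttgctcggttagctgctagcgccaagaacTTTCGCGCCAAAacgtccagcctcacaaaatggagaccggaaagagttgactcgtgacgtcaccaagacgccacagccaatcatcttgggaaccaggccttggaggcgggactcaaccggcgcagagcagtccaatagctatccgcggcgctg
Mcm6: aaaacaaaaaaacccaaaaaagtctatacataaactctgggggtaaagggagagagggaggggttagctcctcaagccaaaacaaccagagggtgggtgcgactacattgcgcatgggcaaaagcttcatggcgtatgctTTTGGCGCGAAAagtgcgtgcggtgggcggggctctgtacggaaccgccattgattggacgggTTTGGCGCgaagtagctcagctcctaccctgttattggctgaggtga
Rrm2: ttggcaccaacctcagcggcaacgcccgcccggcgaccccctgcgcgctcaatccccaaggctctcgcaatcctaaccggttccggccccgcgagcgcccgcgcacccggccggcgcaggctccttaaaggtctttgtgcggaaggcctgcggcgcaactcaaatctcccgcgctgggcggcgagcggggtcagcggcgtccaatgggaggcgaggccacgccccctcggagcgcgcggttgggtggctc
Tk1: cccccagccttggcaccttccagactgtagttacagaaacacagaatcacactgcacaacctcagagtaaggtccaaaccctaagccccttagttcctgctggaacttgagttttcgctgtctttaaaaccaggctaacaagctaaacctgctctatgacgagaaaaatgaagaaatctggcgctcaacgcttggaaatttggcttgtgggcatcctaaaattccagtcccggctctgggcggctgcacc

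A wider list of 60 other replication and nucleotide genes had 30 lower, 5 higher and 25 not called by limma, with a median of -0.28. Under median centring 26 were lower and 9 higher. The higher genes numbered 8 without old replicate 3, 3 without any 1 of the libraries numbered 1 or 2, and 15 with both libraries numbered 3 left out. The shares of all tested genes called in these fits are not given here. The 4 genes with the smallest adjusted p were Dbf4, Clspn, Ticrr and Samhd1. Dbf4, the activating subunit of the Cdc7 kinase, fell by 1.35 (limma adjusted p = 7.30e-07), from 840.0 ± 28.1 to 329 ± 4.01 normalized counts. Clspn, which signals from stalled forks, fell by 1.10 (limma adjusted p = 4.07e-06), and Ticrr, which helps load Cdc45, fell too (-1.66, 1.52e-05). In contrast, Orc2, Orc3, Orc4 and Orc5 did not pass, with differences of 0.07, 0.10, 0.15 and 0.23, whereas their partner Orc1 fell.

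The nucleotide supply genes outside the members went both ways, with 6 of 19 lower, 4 higher and 9 not called. The share of all tested genes called higher was 17.9%, close to that of these genes. Lower genes included Shmt1, a serine hydroxymethyltransferase, Dck, a kinase of deoxynucleoside salvage, and Cad and Umps of pyrimidine synthesis. Shmt1 fell by 1.30 (limma adjusted p = 0.00019) and Dck fell by 0.56 (0.000291). The higher genes were Samhd1, Dguok, Nt5c and Tk2. Samhd1 encodes the enzyme that breaks down deoxynucleotides in non-dividing myeloid cells. Its counts were 1986, 2010.4 and 2109.6 in old and 1297, 1241 and 1214 in young libraries, so that every old library lay above every young one (0.70 ± 0.06, limma adjusted p = 2.87e-05). Dguok and Tk2, the mitochondrial deoxynucleoside kinases, rose by 0.58 (limma adjusted p = 0.00569) and 0.31 (0.0486), and the nucleotidase gene Nt5c by 0.37 (0.00673). Rrm2b, the reductase subunit used outside S phase, did not pass (0.18, 95% interval -0.07 to 0.42). The remaining higher gene of the wider list was Chtf8, a loader subunit (0.31, limma adjusted p = 0.0438). The calls of Tk2 and Chtf8 lay close to the threshold. Of the 6 fits without 1 library, Tk2 passed in the one without young replicate 3 and missed in the other 5, with limma adjusted p up to 0.184 without young replicate 2. Chtf8 lost its call in 4, with p up to 0.158 without old replicate 2, keeping it without either library numbered 3.

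**Figure D3:**
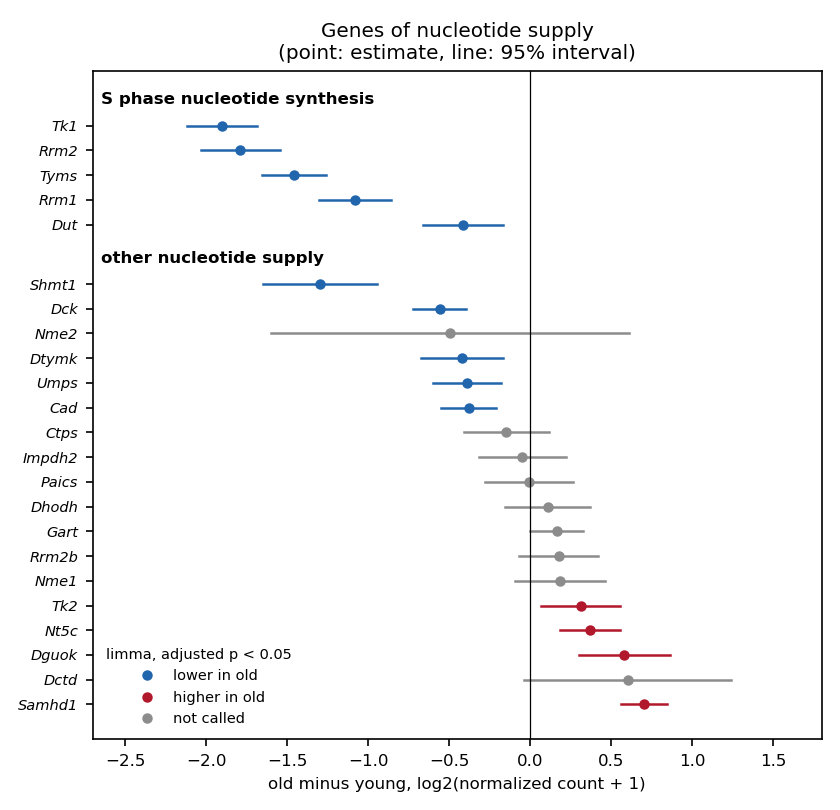
Log2 difference with its 95% interval (horizontal axis, old minus young, log2(normalized count + 1)) for the 5 nucleotide synthesis members and 18 of the 19 other nucleotide supply genes, coloured by limma call. The S phase enzymes lie left of zero, down to -1.90 for Tk1, while Samhd1, Dguok, Nt5c and Tk2 are called to the right, up to 0.70.

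Among 20 regulators of the program, 16 were lower and 1 higher, with a median of -0.57. Foxm1, which drives genes of G2 and mitosis, fell most, by 2.79 ± 0.09 (limma adjusted p = 7.15e-08). The activator gene E2f2 fell by 1.14 (limma adjusted p = 4.39e-06), the repressor gene E2f8 fell by 1.38 (1.87e-06) and Mybl2 fell by 1.33 (2.94e-05). E2f1 did not pass (-0.36, limma adjusted p = 0.052), nor did the pocket protein gene Rb1 (95% interval -0.15 to 0.15). E2f5 was the higher one (0.46, limma adjusted p = 0.0286), and its call was lost without old replicate 1 (0.109), old replicate 2 (0.0675), young replicate 2 (0.109) or young replicate 3 (0.0684).

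Genes of mitosis were set beside the members as a neighbouring stage of the cell cycle. All 25 fell, with a median of -2.66 and a range from -3.78 for Plk1 to -1.80 for Espl1. Mki67, the common marker of cycling cells, went from 11601 ± 550.5 in young to 1353 ± 90.0 in old, and Cenpf, Ube2c and Aspm differed by -3.68, -3.62 and -3.56, all called lower. Tk1 was the sole member whose difference reached into that range. The difference between the lists was not tested, because both were drawn up with earlier results of these data known.

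**Figure D4:**
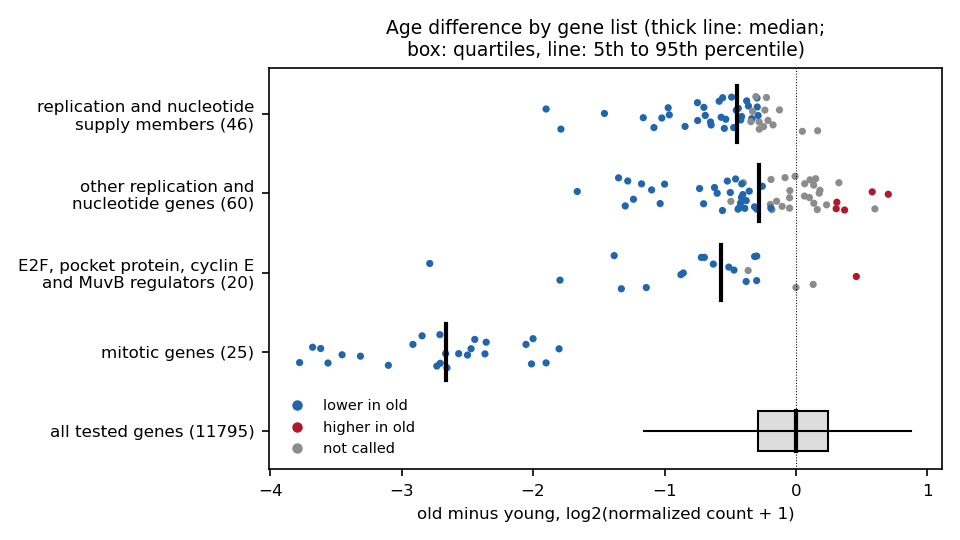
Log2 difference of each gene (old minus young, log2(normalized count + 1)) in the members, the wider replication list, the regulators and the mitotic genes, with a line at each median. The medians are -0.45, -0.28, -0.57 and -2.66 in that order, and the box and line at the bottom give the quartiles and the 5th to 95th percentile of all 11795 tested genes. The mitotic genes lie between -3.78 and -1.80.

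Whether counting used strand is not given in the sources used here, so reads of overlapping genes on opposite strands could be shared. Exon bases are shared with an opposite gene by 15 members, and 4 share at least 500. Chaf1a shares 4648 bases with Ubxn6 and Rfc2 shares 952 with Lat2, and both neighbours were higher in old, by 0.41 and 0.32 (limma adjusted p = 0.00538 and 0.00531). Gins2 shares 2758 bases with Gse1, which did not pass at -0.31, and Fen1 shares 1909 with Gm10143, which had about 1 normalized count. Fen1 also shares 130 with Tmem258, which was higher in old by 0.36 (limma adjusted p = 0.0441). The values of these 4 members are uncertain for that reason, and those of the other overlapping members may be too. Rfc5 shares 499 bases with Wsb2 and Rfc4 shares 194 with Eif4a2. Both neighbours were higher in old, by 0.40 and 0.29 (limma adjusted p = 0.00105 and 0.012), and Wsb2 had 1811 normalized counts in old beside 303 for Rfc5. Orc6 shares 171 with Vps35, which did not pass at 0.20. The pseudogene rows of Pcna and Tyms were small, with means of 18.3 in old and 17.5 in young for Pcna-ps2 and under 1 for Tyms-ps.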

How the data were processed

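RNA of the macrophages had been prepared with the TruSeq protocol, per the labels' protocols. The deposited table gives counts normalized by the authors (a signal per gene and library). DESeq2 and build mm10 are named, without versions, per the submitters' processing notes. Which aligner and counter were used, and with which strand setting, is not given in the sources used here. Each column held whole multiples of a step, so reads were recovered by division (100% whole within 0.01 reads). Depth was 8163016 to 13007604 reads. Symbols matched 19917 identifiers and 56 had none. Positions and lengths are from GENCODE M21 on GRCm38, the assembly of mm10.

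The main test was limma 3.58.1 (R 4.3.3), with a trend, on log2(normalized count + 1), for genes with a mean of at least 10 (11795 tested, 8178 set aside), with Benjamini-Hochberg adjustment over all tested genes and a threshold of 0.05. A difference is the old mean minus the young mean on this scale, which is smaller than the true change where counts are low. Folds are ratios of means. edgeR 4.0.16 and DESeq2 1.42.0 were run on the recovered reads. The test was first tested on simulated data. Other alternatives were pseudocounts, filters, scalings, a replicate block and omitted libraries.

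The members and lists were chosen with earlier results of these data known. Values in every library are given for members called with a difference of at least 1 on the log2 scale or called higher, and per class for the member with the highest mean and that with the smallest adjusted p. From other lists up to 4 called genes of smallest adjusted p, and those called against their list's main direction, are named. Shmt1, Dck, Cad, Umps, Rrm2b, E2f1, Rb1, Plk1, Espl1, Orc2 to Orc5, and Mcm5 and Rfc2 by library, were named after their values were seen. Of 57 cell type markers, 8 were not analysed here. A gene of the wider list is withheld for evaluation and is not reported here by name.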

Additional observations from a re-analysis of the deposited data

How the results depend on the processing

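The number of members called lower stayed between 24 (replicate block) and 40 (edgeR on recovered reads), and between 28 and 34 when 1 library was left out, beside 33 as reported. Of the 33, 24 were called in all 17 alternatives, 9 were lost in at least 1, and none changed direction. The 9 were Mcm3, Mcm4, Cdt1, Gins1, Pola2, Pold1, Pold2, Dut and Tipin, and 10 members that did not pass were called in at least 1 alternative. Members called higher numbered 0 to 1 with 1 library left out (1 without young replicate 3) and 2 with both libraries numbered 3 left out, a choice made because earlier results had set those apart. Pcna, at 0.05 as reported, turned to -0.033 under quantile normalization, -0.00295 without old replicate 2 and -0.012 without young replicate 1, within a range of -0.012 to 0.15 with 1 library left out. In the wider replication list the 5 higher genes became 8 under quantile normalization, 9 under median centring, 3 without the trend, 3 under the replicate block, 15 with both libraries numbered 3 left out, and 3 to 8 with 1 library left out (8 without old replicate 3, 3 without either library numbered 1 or either numbered 2). Among regulators the 1 higher gene became 0 without a filter, 2 under median centring, 0 under the replicate block, 2 with both libraries numbered 3 left out, 0 by DESeq2, and 0 to 1 with 1 library left out (0 without old replicates 1 or 2 or young replicates 2 or 3). The cause of these shifts was not tested, and the shares of all tested genes called in these alternatives are not given here. Lower counts of these lists and of the mitotic genes stayed within 1.5 times the reported ones. Same-numbered libraries had correlations of -0.38, -0.36 and -0.68 in their deviations from the means of their ages. Old replicate 3 had correlations of 0.50 and 0.41 with young replicates 1 and 2. For old replicates 1 and 2 with young replicate 3 they were 0.48 and 0.54. Deviations cancel out within each age, so these values do not settle whether the numbers mark pairs, and the main fit used no pairing. Scaling moved the median of all tested genes by at most 0.054.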
